A study of Homo sapiens with 16 samples.

Results

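The comparison described here is between A549/cDDP cells transfected with a gapmer that targets SCAT7, a long noncoding RNA, and A549/cDDP cells that received a control gapmer, both in cisplatin. It was taken from the labels of the libraries, and it rests on 4 of the 16 libraries of the study, 2 per gapmer. A549 is a human lung adenocarcinoma line, and A549/cDDP is its cisplatin-resistant derivative, which was kept in a labelled 15 mM cisplatin. Both groups therefore share the resistant line and its earlier exposure to the drug, and so do the A549/cDDP libraries in solvent that are used as a reference below. A gapmer is an antisense oligonucleotide with a DNA core that directs RNase H to cut the RNA it pairs with. Of either gapmer, 12 pmol was transfected into wells seeded with 35000 cells. Labelled 15 mM cisplatin was added for the last 24 h of the 48 h between transfection and collection. A matched pair of groups received the drug solvent for those 24 h, and another group was treated with cisplatin without transfection. The cultures were unsynchronized, and A549/cDDP is 1 line, so the results describe that line.

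SCAT7 is the RNA of the gene ELF3-AS1, which lies next to and partly antisense to ELF3, an epithelial transcription factor gene. Cisplatin is a platinum drug that crosslinks bases of DNA. Intrastrand adducts are removed by nucleotide excision repair, and interstrand crosslinks are handled by the Fanconi anaemia pathway together with homologous recombination. Persisting lesions activate the kinases ATR and ATM, and the response to them induces genes such as CDKN1A, an inhibitor of cyclin-dependent kinases, and MDM2, a ubiquitin ligase. Cells that stop dividing lose the RNAs of the genes for DNA replication and mitosis.

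Levels were deposited as FPKM, fragments per kilobase of transcript scaled to the depth of the library. Depth recovered from the smallest FPKM values was 33100000 and 32800000 fragments in the SCAT7 gapmer libraries in cisplatin, and 42490000 and 42300000 in the control gapmer libraries in cisplatin, so it moved with the group. The SCAT7 libraries had 29042 and 29198 genes above 0 and the control libraries 27383 and 27386. Of the 7 epithelial markers, 6 were at 1 FPKM or more in all 4 libraries, led by KRT7, and the exception was EPCAM. All 20 markers of other lineages were below 1 FPKM in these libraries, with CD3E and INS at 0, and 12 of 15 alveolar and airway markers were below 1 FPKM as well. The labels do not say that the replicates came from separate cultures. The p-values rest on the spread within groups, shared over all 16 libraries in 8 groups, and that spread may be technical. The median log2 difference between replicates was 0.122 in the SCAT7 pair in cisplatin, the largest of the 8 groups. In the control pair in cisplatin it was 0.0665, so the shared spread may understate that of the SCAT7 pair.

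ELF3-AS1 (ENSG00000234678, hg38 chr1:201995696-202010463, minus strand) stood at 1.69 and 2.18 FPKM in the SCAT7 libraries and at 3.73 and 3.23 FPKM in the control libraries. The groups did not overlap, and the targeted RNA fell by 0.71 on the scale log2(FPKM + 0.5), with an SE of 0.166 (limma with Benjamini-Hochberg adjustment, adjusted p = 0.00355). About 162 and 207 fragments lay behind the SCAT7 libraries' values and 459 and 396 behind those of the control libraries. In solvent the gene stood at 0.594 and 0.837 FPKM with the SCAT7 gapmer and fell by 1.54. The difference of 0.83 between the effects in the 2 media did not pass the threshold of 0.05 (limma adjusted p = 0.14). The untransfected line in cisplatin had 2.41 and 2.41 FPKM, between the levels with both gapmers.

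ELF3-AS1 shares 2519 bp with ELF3, and the protocol in the labels names no step that marks strand, so reads from that stretch cannot be assigned to either gene. ELF3 stood at 53.8 and 50.3 FPKM with the SCAT7 gapmer and at 46.4 and 44.0 FPKM with the control gapmer, a rise of 0.20 on the log2 scale (limma adjusted p = 0.0122). That call was lost without control replicate 2 (adjusted p = 0.0937) or SCAT7 replicate 1 (adjusted p = 0.0939). Within 250 kb of ELF3-AS1, 12 genes of 25 annotated models were tested. Of these 12, which include ELF3-AS1 and ELF3, 2 were higher and 3 lower. IPO9, a nuclear import receptor, and RNPEP, an aminopeptidase, fell by 0.34 and 0.21. TIMM17A, NAV1, LGR6 and SHISA4 were among the 7 that were not called. NAV1 was called lower with quantile normalization (-0.33, limma adjusted p = 0.0109) and with voom weights on the recovered reads (-0.20, limma adjusted p = 0.0369).

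Across the 17198 genes tested, 4916 (28.6%) were higher and 3629 (21.1%) lower with the SCAT7 gapmer in cisplatin. Together they made up 49.7% of the genes tested, and the median change of all genes was 0.04, and the lists below are read against these values. Most calls were small, with a median size of 0.39 on the log2 scale. At least 2-fold, 671 genes (3.9%) were higher and 328 (1.91%) lower. The libraries of the groups did not overlap for 72.5% of the genes tested: both SCAT7 libraries were above for 40.7% and below for 31.8%. The gene lists below were chosen with earlier results of these data known, and each is described by its counts and its median beside those of all genes.

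**Figure D1:**
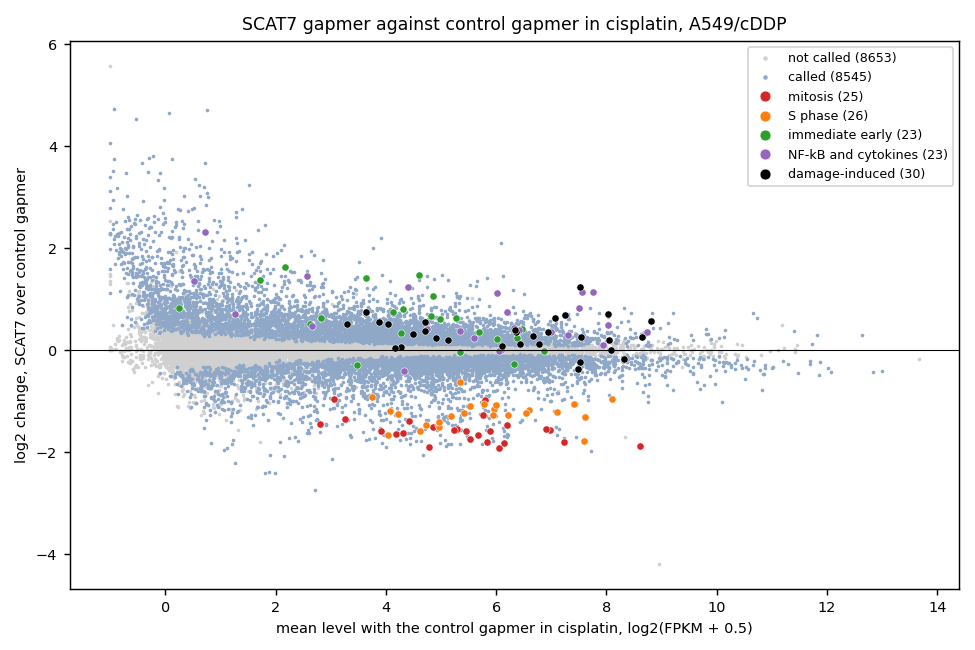
Change of each gene between the SCAT7 and control gapmers in cisplatin (vertical axis, log2) against its mean level with the control gapmer (horizontal axis, log2(FPKM + 0.5)); grey points are genes not called, blue points genes called, and larger points members of 5 lists. The mitosis and S phase genes lie below 0 at every level, and the highest changes belong to genes that were weak with the control gapmer. Of the 671 genes higher at least 2-fold, 266 passed the filter on low values only through groups in which they were higher.

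The genes of mitosis fell as a group. All 25 members were tested, and all 25 were lower, from -1.91 for AURKB and KIF20A to -0.95 for CENPE, with a median of -1.58. TOP2A, the topoisomerase that untangles sister chromatids, stood at 95.0 and 116 FPKM with the SCAT7 gapmer and at 388 and 391 FPKM with the control gapmer. Its change was -1.89 with an SE of 0.105 (limma adjusted p = 4.96e-08). PLK1, the kinase that drives mitotic entry, stood at 25.3 and 26.4 FPKM with the SCAT7 gapmer against 73.4 and 72.2 FPKM, a change of -1.48 (SE 0.0431, limma adjusted p = 7.55e-10). CDK1, the cyclin-dependent kinase of mitosis, stood at 14.4 and 17.2 against 54.1 and 58.4 FPKM, a change of -1.80. Its partner CCNB1 changed by -1.56, and CDC20, an activator of the anaphase-promoting complex, by -1.82. Both SCAT7 libraries were below both control libraries for all 25 genes, against 31.8% of all genes tested.

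The levels of these genes also differed between the control gapmer and no transfection. Summed over the list, the FPKM was 458 and 535 in the SCAT7 libraries, 1581 and 1585 in the control libraries and 731 and 666 in the untransfected libraries in cisplatin. TOP2A stood at 186 and 169 FPKM without transfection, and PLK1 at 31.4 and 30.3 FPKM. Untransfected cells were thus nearer to the SCAT7 gapmer than to the control gapmer for PLK1, for TOP2A and for the sum of the list. These values share the control libraries with the comparison above and were not tested.

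Promoter sequence was read for the mitosis genes, because they moved together, and for other lists beside them. The element TTTGAA is known as the cell cycle homology region, through which MuvB complexes act on genes of the later cell cycle, and CCAAT is bound by the factor NF-Y. Promoters of 300 bases, from 250 before to 50 after the start, were taken from RefSeq on GRCh38.p14 and matched 20 of the 25 genes. Searched on both strands, TTTGAA was in 13 of the 20 (65.0%), against 15.4% of all 27305 promoters and 9.6% of the promoters matched to genes tested. CCAAT was in 17 (85.0%), against 35.7% of all promoters, and both were in 12 (60%), against 6.08%. These motifs share no letters that would make either a part of the other. Among the genes lower at least 2-fold, a set that includes most of the mitosis list, 24.8% of 214 matched promoters held both, and among those higher at least 2-fold 4.78% of 314. On the S phase list described below, which fell as well, TTTGAA was in 1 of 23 matched promoters (4.35%) and CCAAT in 15 (65.2%). On the list of the Fanconi pathway and homologous recombination, TTTGAA was in 3 of 24 (12.5%) and CCAAT in 9 (37.5%). The high share with TTTGAA was thus not seen on these lists, though most of their members were lower. The promoters of 3 members with both motifs are printed on the strand of the gene, with TTTGAA and CCAAT, or their reverse complements, in capitals. They belong to TOP2A (chr17:40417847-40418146, minus strand), CDC20 (chr1:43358731-43359030, plus strand) and CDK1 (chr10:60778081-60778380, plus strand).
TOP2A: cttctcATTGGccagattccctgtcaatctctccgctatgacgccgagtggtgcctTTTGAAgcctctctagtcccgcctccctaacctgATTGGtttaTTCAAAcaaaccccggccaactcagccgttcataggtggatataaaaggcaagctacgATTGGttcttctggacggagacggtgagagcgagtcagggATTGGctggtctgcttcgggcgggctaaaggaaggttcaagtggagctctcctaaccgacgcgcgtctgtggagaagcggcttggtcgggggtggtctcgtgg
CDC20: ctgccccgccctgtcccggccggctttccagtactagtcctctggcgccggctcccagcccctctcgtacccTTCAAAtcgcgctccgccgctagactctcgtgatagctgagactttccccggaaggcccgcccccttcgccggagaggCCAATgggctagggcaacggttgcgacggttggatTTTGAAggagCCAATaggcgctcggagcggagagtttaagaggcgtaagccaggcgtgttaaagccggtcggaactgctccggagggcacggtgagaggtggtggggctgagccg
CDK1: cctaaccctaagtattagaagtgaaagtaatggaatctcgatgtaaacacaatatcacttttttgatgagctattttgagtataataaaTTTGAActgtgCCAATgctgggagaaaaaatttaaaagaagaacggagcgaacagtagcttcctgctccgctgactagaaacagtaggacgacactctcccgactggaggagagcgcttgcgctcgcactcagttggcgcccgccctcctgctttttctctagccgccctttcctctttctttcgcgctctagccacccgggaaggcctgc
TOP2A held 2 matches of TTTGAA and 4 of CCAAT, CDC20 2 and 2, and CDK1 1 and 1. AURKB and KIF20A, whose falls were the largest of the list, held CCAAT without TTTGAA in their windows. A match describes letters and is no evidence of binding.

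Genes of S phase fell as well, and less far. All 26 members were lower, from -1.78 for RRM2 to -0.62 for CCNE1, with a median of -1.23. RRM2, a subunit of ribonucleotide reductase, stood at 53.9 and 58.2 FPKM with the SCAT7 gapmer and at 195 and 192 FPKM with the control gapmer. MCM2 to MCM7, the subunits of the replicative helicase, changed by between -1.08 and -1.31. The sliding clamp gene PCNA stood at 137 and 142 against 271 and 275 FPKM, a change of -0.96. E2F1, the transcription factor of S phase entry, changed by -1.24. Without transfection, the summed FPKM of the list in cisplatin was 920 and 872, against 804 and 855 with the SCAT7 gapmer and 1922 and 1949 with the control gapmer. The untransfected and SCAT7 sums were thus close, and the control gapmer stood apart from both.

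**Figure D2:**
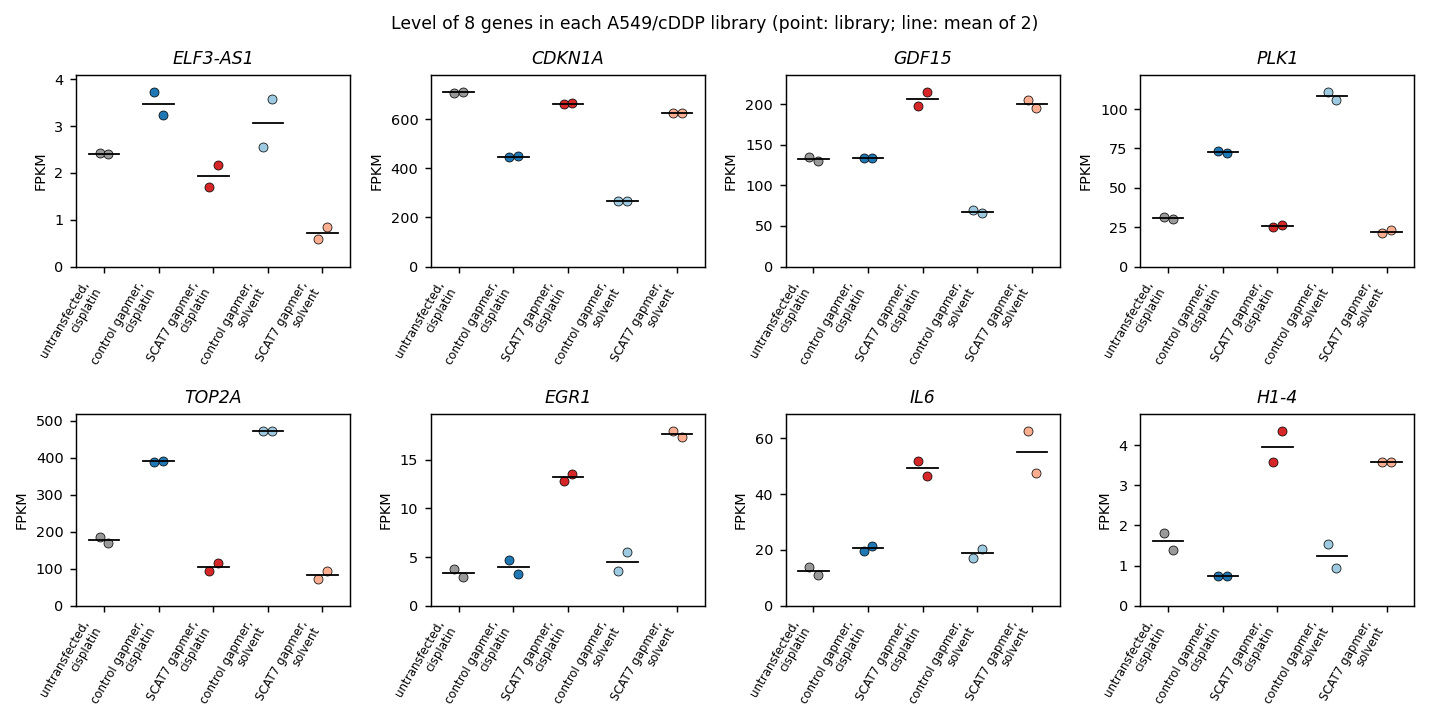
FPKM (vertical axes, from 0) of 8 genes in the A549/cDDP libraries of 5 groups; each point is a library and each line the mean of 2. In cisplatin PLK1 and TOP2A were lower, and CDKN1A, EGR1, IL6 and H1-4 higher, in both SCAT7 libraries than in both control libraries, while CDKN1A was higher still without transfection (708 and 711 FPKM).

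The genes of crosslink repair were mostly lower. Of 26 genes of the Fanconi pathway and of homologous recombination, 21 fell and 2 rose, with a median of -0.97. FANCD2 and FANCI, which form the clamp that is ubiquitinated at a crosslink, changed by -1.50 and -1.55. FANCD2 stood at 12.8 and 14.0 FPKM with the SCAT7 gapmer and at 37.9 and 39.6 FPKM with the control gapmer. BRCA1 stood at 33.2 and 34.3 against 69.6 and 72.3 FPKM, a change of -1.06 (SE 0.0394, limma adjusted p = 3.15e-09). RAD54L, a translocase of recombination, changed by -1.84. The higher members were FANCF (0.22) and RAD51D (0.16), but no member was higher without control replicate 1, control replicate 2 or SCAT7 replicate 2, and 1 was without SCAT7 replicate 1. Without transfection BRCA1 stood at 33.6 and 33.4 FPKM, at the level of the SCAT7 libraries.

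Nucleotide excision repair genes did not move as a group. Of 21 tested members of 22, 6 were higher and 6 lower, with a median of 0.04. ERCC6, which couples repair to transcription, stood at 7.14 and 7.11 FPKM with the SCAT7 gapmer against 3.23 and 3.58 FPKM and rose by 0.97. LIG1, a replication ligase that also seals repair patches, fell by 1.17. DDB2, a damage sensor, fell by 0.36 and XPC, another sensor, rose by 0.28. XPA, the scaffold of the incision complex, stood at 25.7 and 17.5 against 16.6 and 15.3 FPKM, and its rise of 0.40 was lost without SCAT7 replicate 1 (limma adjusted p = 0.32).

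Among 23 genes of damage signalling, 13 were lower and 5 higher, with a median of -0.26. H2AX, the histone that is phosphorylated at breaks, changed by -1.53, from 68.8 and 69.0 FPKM to 21 and 26.3 FPKM. The checkpoint adaptor CLSPN and the fork protein TIMELESS fell by 1.23 and 1.12. ATM rose by 0.46 and its partner RAD50 by 0.33. Without control replicate 1, 3 members instead of 5 were higher.

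Most of the genes known to be induced after DNA damage were higher. Of 30 tested, 22 rose and 3 fell, with a median of 0.30. CDKN1A stood at 661 and 666 FPKM with the SCAT7 gapmer and at 447 and 449 FPKM with the control gapmer, a rise of 0.57 (SE 0.0266, limma adjusted p = 1.44e-08). MDM2 stood at 432 and 417 against 248 and 273 FPKM and rose by 0.70. GADD45A, a stress gene of growth arrest, had the largest rise of the list, 1.24, from 184 and 181 FPKM to 525 and 356 FPKM. ZMAT3, an RNA-binding protein, rose by 0.74, RRM2B, the damage-induced subunit of ribonucleotide reductase, by 0.69, and GDF15, a secreted stress cytokine, by 0.63. FAS, a death receptor, rose by 0.35. The members that fell were DDB2 (-0.36), FDXR (-0.24), a mitochondrial reductase, and BAX (-0.18), a pore-forming death effector. TP53I3, at 299 and 243 against 283 and 258 FPKM, and BBC3, at 40.4 and 30.3 against 28.9 and 30.0 FPKM, were not called. Without transfection in cisplatin, CDKN1A stood at 708 and 711 FPKM and MDM2 at 299 and 313 FPKM. The untransfected cells thus had more CDKN1A RNA than either gapmer group.

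Genes of apoptosis were divided, with 12 higher, 3 lower and 14 not called of 29 tested, at a median of 0.11. The rises included pro-survival genes, BIRC3 (0.82), CFLAR (0.61), XIAP (0.47) and MCL1 (0.43), as well as genes that promote death, HRK (0.89), PMAIP1 (0.61), CASP10 (0.61) and BAK1 (0.53). MCL1 stood at 153 and 139 FPKM with the SCAT7 gapmer against 105 and 111 FPKM. CASP2 fell by 0.52. BCL2 stood at 0.527 and 0.401 against 0.736 and 0.661 FPKM and was not called.

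TOP1, the topoisomerase that nicks 1 strand of DNA, was read with a list because SCAT7 has been tied to it. The list includes TOP2A and genes that act on trapped topoisomerases or on strand breaks. TOP1 stood at 54.3 and 51.7 FPKM with the SCAT7 gapmer and at 49.2 and 49.4 FPKM with the control gapmer, and the difference of 0.10 was not called (limma adjusted p = 0.0627). It was called without SCAT7 replicate 2 (0.14, adjusted p = 0.0359) and with voom weights on the recovered reads (0.10, adjusted p = 0.0474). Of the 15 genes of the list, 10 were lower and 2 higher, with a median of -0.23. The lower members include TOP2A (-1.89), also on the mitosis list and the only member lower at least 2-fold. TDP1, which removes trapped TOP1 from DNA ends, fell by 0.49, from 10.6 and 10.9 FPKM to 7.56 and 7.47 FPKM. TDP2, which removes trapped TOP2, rose by 0.64, from 51.2 and 50.8 FPKM to 84.1 and 75.5 FPKM. PARP1 (-0.55) and LIG3 (-0.56), which act on single-strand breaks, were lower. Without transfection in cisplatin, TDP1 stood at 7.08 and 7.27 FPKM and TDP2 at 76.3 and 74.4 FPKM, near the SCAT7 libraries. TOP1 stood there at 42.7 and 41.7 FPKM, below both gapmer groups. These levels were not tested.

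Of 16 RNA-binding proteins that include reported partners of SCAT7, 13 were lower and none higher, with a median of -0.29. HNRNPA1, a splicing regulator, stood at 566 and 519 FPKM with the SCAT7 gapmer and at 872 and 866 FPKM with the control gapmer, a fall of 0.68. SFPQ, a paraspeckle protein, fell by 0.53 and YBX1, a cold shock domain protein, by 0.31. HNRNPK stood at 475 and 436 against 466 and 466 FPKM, and its groups overlapped. Summed over the list in cisplatin, the FPKM was 4198 and 3904 with the SCAT7 gapmer and 5022 and 5034 with the control gapmer. Without transfection the sum was 4086 and 4045, near that with the SCAT7 gapmer, which was not tested.

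Immediate early genes, which answer growth factor and stress signals within minutes, were mostly higher. Of 23 tested members of 25, 18 rose and 2 fell, with a median of 0.62. EGR1, a zinc finger factor, stood at 12.8 and 13.6 FPKM with the SCAT7 gapmer and at 4.66 and 3.29 FPKM with the control gapmer, a rise of 1.63 (SE 0.189, limma adjusted p = 2.18e-05). FOS and JUN, which pair as AP-1, rose by 1.38 and 1.07. JUN stood at 68.8 and 52.8 against 28.5 and 28.3 FPKM. DUSP6, a phosphatase that ERK signalling induces and that acts on ERK, stood at 32.6 and 32.4 against 11.6 and 12.2 FPKM, a rise of 1.41. MYC fell by 0.28, from 79.4 and 80.6 FPKM to 65.7 and 66.3 FPKM, and KLF2 fell by 0.29. Without control replicate 1, 1 member was lower. The promoter of EGR1 (chr5:138465229-138465528, plus strand, RefSeq GRCh38.p14) is shown with its CArG boxes, the sites of serum response factor, in capitals.
EGR1: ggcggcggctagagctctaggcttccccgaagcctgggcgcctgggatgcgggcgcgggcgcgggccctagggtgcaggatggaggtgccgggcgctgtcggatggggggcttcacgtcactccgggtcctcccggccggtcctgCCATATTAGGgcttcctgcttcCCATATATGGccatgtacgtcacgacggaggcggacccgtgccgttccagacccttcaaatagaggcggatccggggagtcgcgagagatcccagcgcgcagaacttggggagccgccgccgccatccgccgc
The window held 2 CArG boxes. Of 18 matched promoters of the list, which includes members that fell, EGR1's alone held the motif in its window, against 1.29% of all promoters. Sequence outside the windows and promoters of unmatched members were not searched. Whether the genes that rose share the motif there was not tested.

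Genes of NF-kB signalling and its cytokines were higher for 20 of 23 tested members of 24, with 1 lower and a median of 0.48. IL1A, an alarm cytokine, stood at 8.59 and 6.75 FPKM with the SCAT7 gapmer against 1.07 and 1.20 FPKM and rose by 2.31. IL6 stood at 52.0 and 46.6 against 19.7 and 21.4 FPKM, a rise of 1.24. CXCL8, a neutrophil chemokine, stood at 503 and 451 against 207 and 226 FPKM, a rise of 1.14 (SE 0.0785, limma adjusted p = 2.84e-07). TNFAIP3, a feedback inhibitor of NF-kB, rose by 1.12, SOD2, a mitochondrial superoxide dismutase, by 1.13 and CCL20 by 1.46. IL11 fell by 0.40. Without transfection in cisplatin CXCL8 stood at 114 and 102 FPKM and IL6 at 13.7 and 11 FPKM, below both gapmer groups.

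Interferon-induced genes differed in the share that moved. Of 25 tested, 10 were higher, none lower and 15 not called, with a median of 0.31. RSAD2, an antiviral enzyme, stood at 273 and 130 FPKM with the SCAT7 gapmer against 68.7 and 69.1 FPKM, a rise of 1.45 (limma adjusted p = 0.00249). IRF1, an interferon regulatory factor, stood at 121 and 86.5 against 50.3 and 52.1 FPKM, a rise of 0.99. ISG15 stood at 687 and 498 against 516 and 529 FPKM, and IFI6 at 1741 and 1300 against 1398 and 1420 FPKM, so that their groups overlapped. In each of these 4 genes SCAT7 replicate 1 was above replicate 2. Without SCAT7 replicate 1, 2 members were higher, and without SCAT7 replicate 2, 16 were; without control replicate 1 the number was 5. The calls of IFIT2 (adjusted p = 0.0821), CXCL10 (0.191) and MX2 (0.318) were lost without SCAT7 replicate 1. Summed over the list, the FPKM was 6641 and 4812 with the SCAT7 gapmer, 4761 and 4819 with the control gapmer, and 314 and 324 in the untransfected line in cisplatin. Both gapmer groups thus stood far above the untransfected cells.

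Genes of the ATF4 and ER stress response rose for 13 of 22 members and fell for 3, with a median of 0.27. DDIT3, a stress transcription factor, stood at 84.1 and 63.5 FPKM with the SCAT7 gapmer against 25.9 and 27.0 FPKM, a rise of 1.45. ATF3, a factor shared with the immediate early list, stood at 75.6 and 57.9 against 23.4 and 23.9 FPKM, a rise of 1.46. PPP1R15A, which relieves the translation block of the stress response, rose by 1.06, and TRIB3 by 0.97. ATF4 itself stood at 162 and 165 against 159 and 160 FPKM and was not called. HSP90B1, SDF2L1 and PHGDH fell by 0.26, 0.48 and 0.31.

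Among 25 NRF2 targets, 8 were higher and 4 lower, with a median of 0.08. FTH1, a ferritin chain, stood at 3386 and 3635 FPKM with the SCAT7 gapmer against 2741 and 2701 FPKM, a rise of 0.37. SLC7A11, the cystine transporter, rose by 0.44 and HMOX1, the haem oxygenase, by 0.45, while TKT fell by 0.34. Of 20 tested genes of platinum transport and binding, 7 were higher and 3 lower, with a median of -0.003. ABCC2 and ABCC3, export pumps, rose by 0.16 and 0.31, ATP7A, a copper pump, by 0.42, and SLC31A1, the copper importer, fell by 0.15. Without SCAT7 replicate 2, 5 NRF2 targets were higher. Without SCAT7 replicate 1, 2 NRF2 targets and 1 transport gene were lower.

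**Figure D3:**
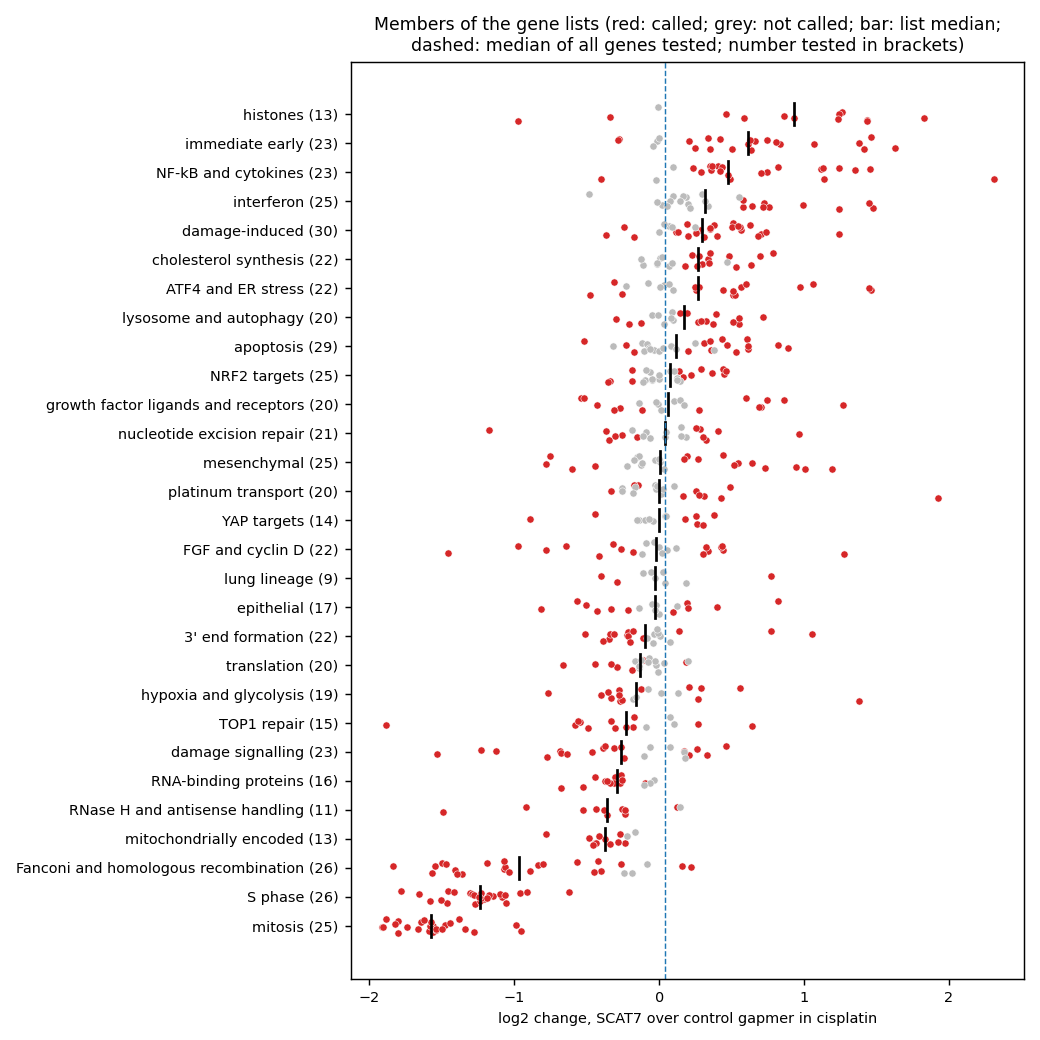
Log2 change of each tested member of 29 gene lists between the SCAT7 and control gapmers in cisplatin; red points were called, grey points were not, bars are list medians and the dashed line is the median of all genes (0.04). Medians run from -1.58 for mitosis to 0.93 for histones.

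FGF receptors and the cyclin D axis were read because SCAT7 has been tied to FGF signalling. Of 22 tested genes, 7 were higher and 8 lower, with a median of -0.02. FGFR1 stood at 55.8 and 61.7 FPKM with the SCAT7 gapmer against 101 and 101 FPKM, a fall of 0.78, and FGFR4 at 13.5 and 15.4 against 29.4 and 28 FPKM, a fall of 0.97. FGF2, a ligand, rose by 0.44. CCND1 stood at 923 and 900 against 740 and 737 FPKM, a rise of 0.30, while its partner CDK4 fell by 0.32. CCND2 rose by 1.28 from 0.5 and 0.55 FPKM to 1.91 and 2.05 FPKM. CDKN2C, an inhibitor of CDK4 and CDK6, fell by 1.45. CDK6 and RB1 were not called, at 48.4 and 51.9 against 51.5 and 51.3 FPKM and at 38.2 and 40.7 against 42.2 and 43.3 FPKM.

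Genes of the growth factor list moved in both directions, and several ligands of the EGF receptor were among those that rose. EREG stood at 281 and 298 FPKM with the SCAT7 gapmer against 177 and 177 FPKM, a rise of 0.70. TGFA, HBEGF and BTC rose by 0.74, 0.69 and 0.60, and EGFR itself by 0.27. INHBA, a subunit of activin, rose by 1.27, from 3.50 and 3.38 FPKM to 10.9 and 7.39 FPKM. ID1, ID2 and ID3, targets of BMP signalling, fell by 0.54, 0.52 and 0.43, and BMP2, a ligand, rose by 0.86. The list as a whole had 7 of 20 genes higher and 6 lower, with a median of 0.06. Over all genes tested 28.6% were higher and 21.1% lower, with a median of 0.04.

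Of 24 epithelial genes 17 were tested, and 5 rose and 6 fell, with a median of -0.03. CDH1, the adhesion protein E-cadherin, stood at 3.38 and 3.55 FPKM with the SCAT7 gapmer against 5.31 and 5.43 FPKM, a fall of 0.57. EPCAM fell by 0.82, at 0.584 and 0.857 against 1.72 and 1.56 FPKM. KRT18 stood at 646 and 684 against 956 and 926 FPKM, a fall of 0.50. CLDN1, a tight junction protein, rose by 0.40. CEACAM1 stood at 30.7 and 19.9 against 13.1 and 14.5 FPKM, and its rise of 0.82 was lost without SCAT7 replicate 1 (limma adjusted p = 0.0737). The number of higher members fell to 1 without SCAT7 replicate 1, 2 without control replicate 2 and 3 without control replicate 1. Of 25 mesenchymal genes, 11 were higher and 4 lower, with a median of 0.01. ZEB2, a repressor of CDH1, stood at 14.5 and 13.5 against 5.88 and 5.83 FPKM, a rise of 1.19. SNAI2 rose by 0.94 and MMP9 by 1.01. TGFBI fell by 0.75, and the basement membrane collagens COL4A1 and COL4A2 by 0.60 and 0.78. VIM stood at 968 and 1088 against 1040 and 1056 FPKM and was not called.

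Of 14 YAP targets, 5 were higher and 2 lower, with a median of -0.003. TEAD4, a DNA-binding partner of YAP, fell by 0.89 and CRIM1 by 0.44, while AJUBA rose by 0.38 and CCN1 by 0.18. The number higher was 2 without control replicate 1 and 3 without SCAT7 replicate 1, and the number lower was 4 without SCAT7 replicate 2. Of 9 tested genes of 18 on the lung lineage list, 1 was higher and 2 lower, with a median of -0.03. AGER rose by 0.77, and the transcription factor gene FOXA1 fell by 0.40.

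Metabolic lists moved in parts. Of 22 cholesterol synthesis and uptake genes, 13 were higher and none lower, with a median of 0.27. INSIG1, a regulator of sterol sensing, stood at 15.4 and 18 FPKM with the SCAT7 gapmer against 10.1 and 9.99 FPKM, a rise of 0.70. STARD4, a sterol carrier, rose by 0.63. Without SCAT7 replicate 2, 1 member was lower. Of 19 tested genes of hypoxia and glycolysis, 5 were higher and 9 lower, with a median of -0.16. PFKFB4 rose by 1.38, from 33.4 and 35.1 FPKM to 84.6 and 96.1 FPKM, and its paralogue PFKFB3 fell by 0.77, from 121 and 119 FPKM to 68.3 and 72.7 FPKM. LDHA, ENO1, PGAM1 and ALDOA, enzymes of glycolysis, fell by 0.40, 0.33, 0.35 and 0.26. Without SCAT7 replicate 1, 5 were lower, and without control replicate 2, 3 were higher.

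Of 20 lysosome and autophagy genes, 11 rose and 3 fell, with a median of 0.17. SQSTM1, an autophagy receptor, stood at 2627 and 2689 FPKM with the SCAT7 gapmer against 1656 and 1572 FPKM, a rise of 0.72 (SE 0.0535, limma adjusted p = 5.32e-07). MAP1LC3B, a coat protein of autophagosomes, rose by 0.55, CTSL, a lysosomal protease, by 0.55, and ULK1, the initiating kinase, by 0.37. No member was lower without SCAT7 replicate 1, and 1 was lower without control replicate 1. Untransfected cells in cisplatin had 2438 and 2499 FPKM of SQSTM1, nearer to the SCAT7 gapmer.

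Histone genes rose. The libraries were enriched for mRNA with oligo(dT), and the replication-dependent histone RNAs among these genes normally end without a poly(A) tail. Of 13 members, which include genes of variant histones, 10 were higher and 2 lower, with a median of 0.93. H1-2 stood at 118 and 120 FPKM with the SCAT7 gapmer against 48.2 and 50.5 FPKM, a rise of 1.26 (SE 0.0488, limma adjusted p = 3.6e-09). H2BC4 and H4C8 each rose by 1.43, and H1-4 rose by 1.83 from 0.749 and 0.752 FPKM to 3.57 and 4.34 FPKM. The 2 members that fell, H2AZ1 (-0.97) and H3-3A (-0.34), encode variant histones. H2AX, a histone gene counted with damage signalling above, fell by 1.53. Summed over the list, the FPKM was 1868 and 1594 with the SCAT7 gapmer against 1575 and 1582 with the control gapmer, so the sum of SCAT7 replicate 2 was near the control level. Without transfection H1-2 stood at 112 and 105 FPKM, close to the SCAT7 libraries. H2BC genes are near-identical copies, so reads could be split between them in the counting.

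Of 22 genes of 3' end formation, 11 fell and 3 rose, with a median of -0.10. PCF11, a termination factor, stood at 52.2 and 46.0 FPKM with the SCAT7 gapmer against 23.8 and 22.9 FPKM, a rise of 1.05 (SE 0.0575, limma adjusted p = 4.16e-08). RBBP6 rose by 0.77 and WDR33 by 0.14. CPSF3, the endonuclease that cuts the pre-mRNA, fell by 0.51, and INTS11, the endonuclease of the Integrator complex, by 0.39. Of 11 tested genes known to handle antisense oligonucleotides, 9 were lower and 1 higher, with a median of -0.36. RNASEH1, the nuclease through which gapmers act, stood at 34.1 and 31.0 against 29.6 and 29.2 FPKM and was not called (limma adjusted p = 0.0608). RNASEH2A and RNASEH2C, subunits of the other RNase H, fell by 1.49 and 0.92. No member was higher without control replicate 1 or control replicate 2.

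Mitochondrially encoded mRNAs were lower for 11 of 13, with none higher and a median of -0.37. MT-ND6 stood at 1011 and 1091 FPKM with the SCAT7 gapmer against 1856 and 1756 FPKM, a fall of 0.78. MT-CO2 stood at 5446 and 6879 against 8055 and 8235 FPKM, a fall of 0.41. The rRNA MT-RNR1, from the same genome, rose by 0.63, from 1647 and 1749 FPKM to 2853 and 2418 FPKM. Mitochondrial genes took 6.96% and 7.76% of the summed FPKM in the SCAT7 libraries and 8.35% and 8.46% in the control libraries. Of 20 translation genes, 7 were lower and 1 higher, with a median of -0.13. RPL3 fell by 0.66, from 1018 and 991 FPKM to 615 and 655 FPKM. EIF3A was the higher member. No member was higher without SCAT7 replicate 1, control replicate 1 or control replicate 2, and 2 were without SCAT7 replicate 2. TUBA1B, a tubulin gene, fell by 1.02, from 1034 and 1143 FPKM to 500 and 571 FPKM. In bulk RNA, fewer cells of a kind, such as dividing cells, and less RNA per cell cannot be told apart.

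The 15 genes with the largest falls that reached 5 FPKM were led by the small nucleolar RNA SNORD19 (-2.73). SNORD19 stood at 0 and 1.35 FPKM with the SCAT7 gapmer against 4.50 and 7.65 FPKM, and an oligo(dT) library measures such an RNA poorly. PIF1, a DNA helicase, stood at 1.36 and 1.37 against 7.39 and 7.92 FPKM, a fall of 2.13 (SE 0.0851, limma adjusted p = 4.55e-09). TROAP, a spindle-associated protein, fell by 2.05, TK1, the thymidine kinase of S phase, by 1.97, and NEK2, a centrosome kinase, by 1.91. MYBL2, a transcription factor that works with the MuvB complex, fell by 1.89. PBK, DLGAP5, KIFC1, KIF18B and CDCA3 fell by between 1.83 and 1.85. AURKB, KIF20A, TOP2A and RAD54L, already described, complete the 15. TK1 stood at 48.8 and 57.6 FPKM against 214 and 204 FPKM.

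For the largest rises a gene had to reach 5 FPKM with the SCAT7 gapmer, and for the falls with the control gapmer. Falls from a weak control level were thus left out by the rule. The 15 largest rises were low in the control libraries, at 1.25 FPKM or less. Those below 0.5 FPKM there passed the filter on low values only through groups in which they were higher, so this is a description. GRAMD2A stood at 14.0 and 13.0 FPKM with the SCAT7 gapmer against 0 and 0.0476 FPKM, which are 0 and 2 fragments, and changed by 4.74. C8G, a complement chain, stood at 52.4 and 36.6 against 1.14 and 1.23 FPKM, a change of 4.72 (SE 0.233, limma adjusted p = 2.13e-08). COL9A3, a cartilage collagen chain, stood at 18.7 and 12.8 against 0.166 and 0.215 FPKM, a change of 4.53. RAPSN, a protein of the neuromuscular junction, changed by 3.81, SCUBE2 by 3.76, HCLS1, a protein of blood cells, by 3.74, PYGM, the muscle glycogen phosphorylase, by 3.68, and SPON2 by 3.51. Fitted changes of genes near 0 depend on the pseudocount of 0.5 and are no bounds.

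Many of these genes lay close behind another gene. Of the 15, 11 start within 10 kb downstream of a gene on the same strand that had 10 FPKM or more with the control gapmer. GRAMD2A starts 1244 bp after PKM, a glycolytic gene at 2424 and 2356 FPKM with the control gapmer. FAM83E starts 474 bp after RPL18, SCUBE2 711 bp after DENND5A, COL9A3 2244 bp after OGFR, HCLS1 2272 bp after GOLGB1 and PYGM 4309 bp after SF1. The upstream genes did not share a direction: GOLGB1 and DENND5A rose by 0.57 and 0.49, RPL18 and SF1 fell by 0.34 and 0.22, and PKM and OGFR were not called. Over all genes tested, 12.8% lay so, against 40.8% (274) of the 671 genes higher at least 2-fold and 10.4% of the genes lower at least 2-fold. These shares are a description: 266 of the 671 genes passed the filter on low values only through groups in which they were higher, so the contrast with all genes tested is set in part by that filter. A table of genes does not show where in a gene its reads lie, and whether these reads began in the upstream gene was not tested.

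**Figure D4:**
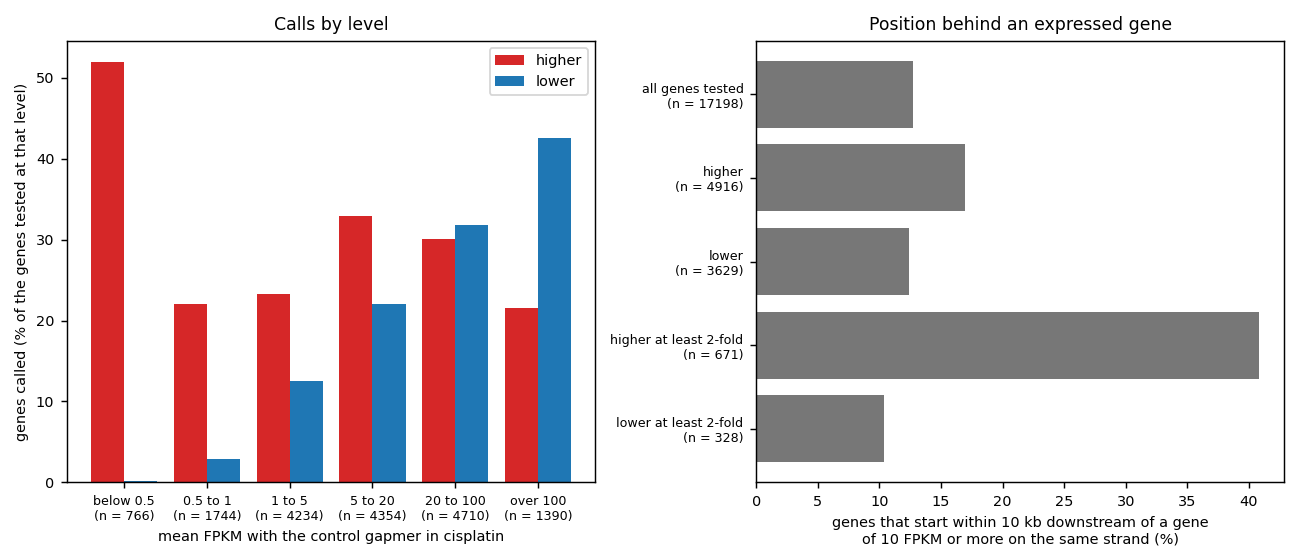
Left, share of genes called higher (red) or lower (blue) in each class of mean FPKM with the control gapmer in cisplatin, in percent of the genes tested in the class. Right, share of genes that start within 10 kb downstream of an expressed gene on the same strand, 12.8% of all genes tested and 40.8% of those higher at least 2-fold, 266 of which passed the filter on low values only through groups in which they were higher.

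Of the genes higher at least 2-fold, 58.0% were below 1 FPKM with the control gapmer, against 14.6% of all genes tested. Of the 671 genes, 266 were below 0.5 FPKM with the control gapmer. These passed the filter, a mean of 0.5 FPKM over all libraries, only through groups in which they were higher, so this share is a description and supports nothing about weak genes as a whole. With a filter at a mean of 2 FPKM instead of 0.5, the number higher at least 2-fold was 301. Above 100 FPKM with the control gapmer, 42.6% of 1390 genes were lower and 21.6% higher. Beside these changes, genes of other tissues gave more reads. Over 376 olfactory receptor genes, which lung cells are not known to use, 141 and 172 reads were recovered in the SCAT7 libraries and 40 and 64 in the deeper control libraries. Noncoding genes took 2.41% and 2.25% of the recovered reads in the SCAT7 libraries against 2.09% and 2.12% in the control libraries. Their share was 2.20% and 2.31% in the untransfected A549/cDDP libraries in cisplatin, which overlaps the SCAT7 libraries. For 880 sense intronic genes, reads scaled to depth overlapped between the gapmer groups in cisplatin. The part of depth or of RNA quality in these differences was not tested.

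A few genes were listed at 0 in both control libraries and at 2 FPKM or more in both SCAT7 libraries. The processed transcript ENSG00000233191 stood at 4.55 and 3.24 FPKM. Against the level that 3 fragments over both control libraries would give, it was at least 101-fold higher. ENSG00000275948, a small RNA gene that starts 1 bp after NEAT1, stood at 8.33 and 7.36 FPKM, at least 12.9-fold higher by the same floor. These values are 16 and 14 fragments over a model of 58 bases, and an oligo(dT) library measures such an RNA poorly. NEAT1 itself, the scaffold of paraspeckles, fell by 0.49, from 424 and 450 FPKM to 360 and 270 FPKM. ENSG00000275530 was also at 0 in the control libraries and was not called (limma adjusted p = 0.103), and it ranged from 0 to 915 FPKM within the control gapmer pair in solvent. Such floors cover counting error only, and the genes were chosen for their 0 values.

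The gapmer effect was then set against the effect in solvent, measured in 4 other libraries. In solvent, 5702 genes were higher (33.2%) and 3903 lower (22.7%). Called higher in both media were 4369 genes, 88.9% of the list in cisplatin and 76.6% of the list in solvent. Called lower in both were 3053 genes, 84.1% and 78.2% of the lists. Across genes, which are not independent replicates and share their libraries, the changes in the 2 media had a Pearson correlation of 0.88, and the slope of the change in cisplatin on that in solvent was 0.75. Of the 671 genes higher at least 2-fold in cisplatin, 525 rose more in solvent, and of the 328 lower at least 2-fold, 252 fell more in solvent.

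**Figure D5:**
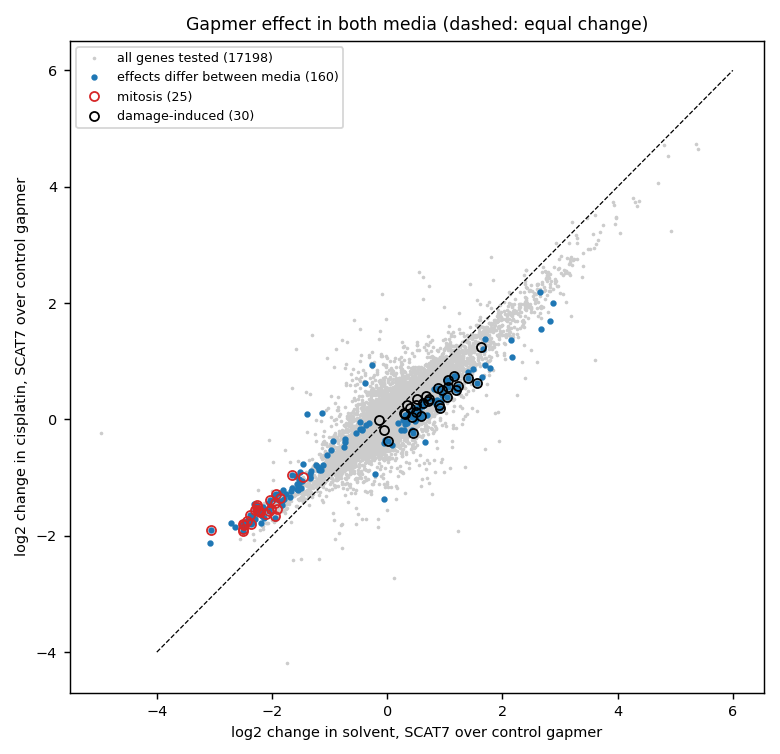
Log2 change of each tested gene between the SCAT7 and control gapmers in solvent (horizontal axis) and in cisplatin (vertical axis); blue points are the 160 genes whose effects differed between the media, open circles mark the mitosis and damage-induced lists, and the dashed line marks equal change. Mitosis genes lie above the line on the left, and most damage-induced genes lie below it on the right; DDB2, FDXR and BAX fell in cisplatin.

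The test of the difference between the media called 160 genes (0.93%), 84 where the effect was higher in cisplatin (0.488%) and 76 where it was lower (0.442%). Of these, 152 had a smaller change in cisplatin than in solvent. The number depended on which libraries were kept: it was 45 and 52 without control replicate 1 or 2 in solvent, 70 and 48 without control replicate 1 or 2 in cisplatin, 55 without SCAT7 replicate 1 in solvent and 462 without SCAT7 replicate 2 in cisplatin. Of the mitosis genes 16 of 25 were among them, all with a smaller fall in cisplatin. PLK1 changed by -2.27 in solvent and by -1.48 in cisplatin, a difference of 0.79 (limma adjusted p = 0.00013). Of the damage-induced genes 17 of 30 were among them, all with a lower effect in cisplatin. CDKN1A rose by 1.22 in solvent and by 0.57 in cisplatin, a difference of -0.66 (limma adjusted p = 1.4e-05). No immediate early, NF-kB or interferon gene of the lists was called in this test.

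The levels behind these differences were closer between media with the SCAT7 gapmer than with the control gapmer for CDKN1A, GDF15 and PLK1, a description with no test. With the SCAT7 gapmer, CDKN1A stood at 661 and 666 FPKM in cisplatin and at 626 and 623 FPKM in solvent. With the control gapmer it stood at 447 and 449 FPKM in cisplatin and at 266 and 269 FPKM in solvent. GDF15 followed, at 199 and 215 FPKM in cisplatin and 206 and 195 FPKM in solvent with the SCAT7 gapmer, and at 134 and 134 against 69.4 and 66.2 FPKM with the control gapmer. PLK1 stood at 25.3 and 26.4 FPKM in cisplatin and 21.3 and 22.9 FPKM in solvent with the SCAT7 gapmer, and at 73.4 and 72.2 against 111 and 106 FPKM with the control gapmer. FDXR had opposite signs, a rise of 0.46 in solvent and a fall of 0.24 in cisplatin, with a difference of -0.70 (limma adjusted p = 1.4e-05).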

How the data were processed

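RNA of 16 libraries in 8 groups of 2 was sequenced after oligo(dT) selection. The authors deposited 1 table of FPKM for 60448 gene identifiers. Per the submitters' processing notes, HTSeq 0.6.1, TopHat2 and hg38 were used; which annotation was counted, and whether by strand, is not given in the sources used here. Symbols came from GENCODE 29 and RefSeq. Multiplied by a gene's mean transcript length and a library factor, 93.0% of FPKM values below 12 fragments came out whole within 0.02 fragments. The depth so recovered was 31350000 to 43140000 fragments a library, and it was used for depths, floors and 1 alternative. Genes whose 16-library mean reached 0.5 FPKM entered the test on log2(FPKM + 0.5) with limma 3.58.1 in R 4.3.3. The fit took all 16 libraries (8 residual degrees of freedom) with a trended prior, and p-values were adjusted by Benjamini-Hochberg over all 17198 genes, with a threshold of 0.05. Scripts were tested on simulated data. Of the genes tested, 56.7% overlap a model on the other strand, and their reads cannot be told apart without strand.

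Gene lists, members and tests were chosen with earlier results of these data known. The rule for named genes took the target and 8 genes tied to it, the 15 largest rises and falls among genes of at least 5 FPKM whose groups did not overlap, list members, the neighbours of ELF3-AS1, the 5 most abundant genes changed at least 1.5-fold, genes at 0 in 1 group, and the 8 highest and 8 lowest differences between media. The genes upstream of the largest rises were chosen after their values were seen. Other pseudocounts, filters, scalings, priors, fits and left-out libraries were tried, and voom weights on recovered reads were added after seeing the data. Values of some list members are not reported here, though the counts of the lists include them.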

Additional observations from a re-analysis of the deposited data

Results flagged for a closer look

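The effect of the SCAT7 gapmer differed between cisplatin and solvent, by the test of the difference itself (limma with Benjamini-Hochberg adjustment), for the 16 genes with the highest and lowest called differences at 5 FPKM or more. Differences are given as the log2 change in cisplatin minus that in solvent. Genes of mitosis and the cell cycle fell less in cisplatin. KIF20A, a mitotic kinesin, changed by -1.91 in cisplatin and -3.05 in solvent, a difference of 1.14. PIF1 differed by 0.95, GTSE1, a G2 and S phase protein, by 0.93, CDKN2C by 0.85, DLGAP5 by 0.80, PLK1 by 0.79 and HMMR by 0.76. The gene ENSG00000272149 changed by 0.94 in cisplatin and by -0.27 in solvent, a difference of 1.21 (adjusted p = 0.0092).

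Other genes rose less in cisplatin. GRIN2C, a glutamate receptor subunit, rose by 1.08 in cisplatin and 2.16 in solvent, a difference of -1.08 (limma adjusted p = 0.0025). GDF15 differed by -0.93, and VWCE and ZBTB46-AS2 each by -0.90. FAUP4, a processed copy of FAU whose reads may be shared with its parent gene, differed by -0.87. NBEAP1 differed by -0.78, UNC13D, a protein of granule release, by -0.76, and ACER2, a ceramidase, by -0.74. The calls of PLK1, GDF15 and GRIN2C held under all 18 alternatives run. Those of KIF20A, PIF1 and GTSE1 were lost under 1 each, ENSG00000272149 and NBEAP1 under 3, FAUP4 under 4, DLGAP5 and HMMR under 6, UNC13D under 7, VWCE and ZBTB46-AS2 under 8, CDKN2C under 10 and ACER2 under 14. The replicate block was among the alternatives that ended the calls of CDKN2C and ACER2.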

How the results depend on the processing

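No named gene that was called changed sign under the alternatives run. Of 2780 values of 200 named genes in cisplatin, 2739 kept their side of the threshold, 36 lost and 5 gained a call. Of 288 values for the 16 named differences between media, 72 lost the call. The number of genes called in cisplatin was 6650 to 8464 with a library left out, 6431 with only the libraries compared and 9419 without a filter. Quantile normalization gave 4392 higher and 4291 lower, a share of 50.6% higher against 57.5%; it turned the median of all genes from 0.04 to -0.02 and gave 4824 higher and 4839 lower in solvent. The replicate block gave 8479 genes in cisplatin and 140 differences; the replicate numbers pair no samples by the labels, and same-numbered deviations of the compared groups correlated at 0.011. The number of differences between media, 160 as reported, was 262 without a filter, 257 with voom weights, 75 with a prior without trend and 10 with only the libraries compared, and from 45 to 462 with a library left out. The split of these differences was 84 higher and 76 lower. It turned to 35 and 40 with a prior without trend, 4 and 6 with only the libraries compared and 122 and 135 with voom weights. Without a filter it was 116 and 146, and with a mean of 2 FPKM 110 and 113. More were lower than higher also when any 1 control gapmer library of either medium was left out. The number higher at least 2-fold was 301 with a mean of 2 FPKM. ELF3-AS1 changed by between -0.86 and -0.57 with a library left out. With 2 libraries a group, a left-out library leaves a lone sample that is assumed to vary like the other groups. The cause of these changes was not tested.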
